A study of Mus musculus with 8 samples.

Results

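The genes described here are those of the liver X receptors and of cholesterol efflux, measured in whole mouse melanomas under chow (CD) or under a diet rich in fat and cholesterol (HFHCD). Members were chosen by gene symbol from a list of 10 genes. Of these, 9 had a probe set named by the array's annotation, out of 24675 named genes on the array. They are Nr1h3, Abca1, Abcg1, Abcg5, Abcg8, Apoe, Apoc1, Mylip and Lpcat3. The tenth, the second liver X receptor gene, is not analysed here.

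The tumors arose from B16-F10, a melanoma line of C57BL/6J origin. Female C57BL/6J mice ate CD, or HFHCD made with cocoa butter and cholesterol, for 2 weeks before injection. At 9 weeks of age 250000 cells were placed under the flank skin. The authors describe a return from HFHCD to CD at injection only for a separate experiment. At day 9 after injection 4 tumors were taken on each diet. Neither group carried a transgene or drug as far as the labels say, and HFHCD is written HFD in the titles. RNA of whole tumors was measured on Affymetrix MouseGene2.0ST arrays. A value therefore averages over melanoma cells and all host cells, and fewer cells of a type cannot be told apart from less RNA per cell.

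Liver X receptors are nuclear receptors that bind oxysterols, oxidised forms of cholesterol, and act as pairs with a retinoid X receptor (RXR) on DNA. When sterol is abundant they switch on genes that move cholesterol out of the cell and onto lipoproteins. Macrophages, which take up much lipoprotein cholesterol, are the cells in which this response is best known. Abca1, Abcg1, Abcg5, Abcg8, Apoe, Apoc1, Mylip and Lpcat3 are all known targets of the receptors in mouse or human cells.

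All values are log2 expression after RMA, the authors' background correction, equalisation of arrays and summary of probes. Array medians lay between 5.03 and 5.19. Of 12 melanocyte markers, which check the tissue, all lay above 4.50 in at least 4 arrays. That level, below which 40% of all values lie, is called dim here. A pair of CD tumors, 1 and 3, correlated less with the other arrays (median r 0.979 and 0.980, against 0.986 to 0.991). Markers of monocytes and macrophages averaged 7.14 in CD 1 and 7.50 in CD 3. Elsewhere they averaged 6.12 and 6.19 in the remaining CD tumors and 5.55 to 6.13 on HFHCD. Of the 20 measured, 13 were lower on HFHCD, 0 were higher and 7 did not pass limma's test. A gene is said to pass where its unadjusted p is below 0.05, as in the methods. Cd14 and Cd163 were dim. The 12 fibroblast markers averaged 7.43 in CD 1, 7.81 in CD 3, 6.52 to 6.58 in the remaining CD tumors and 5.87 to 6.00 on HFHCD, with 8 lower and 0 higher. The 12 skeletal muscle markers averaged 6.81 in CD 1, 7.07 in CD 3, 5.47 to 5.98 in the remaining CD tumors and 5.16 to 5.60 on HFHCD, with 9 lower and 0 higher. Melanocyte markers, 3 of them higher and 0 lower, were lowest in those same CD tumors, at 10.84 and 10.86, against 10.96 to 11.04 in the remaining CD tumors and 11.03 to 11.13 on HFHCD.

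The receptors are known for binding a direct repeat of AGGTCA with 4 bases between the copies, written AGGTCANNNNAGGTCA. RefSeq promoter windows of GRCm38.p6, from 250 bases before to 50 bases after the annotated start, held 7 of the 9 genes and were searched on both strands. The closest run to the repeat is in capitals in the sequences below. The Abca1 window is at chr4:53159846-53160145 on the minus strand, and the Abcg8 window at chr17:84682871-84683170 on the plus strand. The latter is shown because Abcg8 and its partner Abcg5 start 110 bases apart on opposite strands, so that their windows share 209 bases.
Abca1: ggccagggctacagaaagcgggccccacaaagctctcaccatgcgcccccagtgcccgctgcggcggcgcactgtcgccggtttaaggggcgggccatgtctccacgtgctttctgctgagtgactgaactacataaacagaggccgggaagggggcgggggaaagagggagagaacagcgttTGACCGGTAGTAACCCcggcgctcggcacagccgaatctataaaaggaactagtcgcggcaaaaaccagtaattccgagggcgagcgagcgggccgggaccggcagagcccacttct
Abcg8: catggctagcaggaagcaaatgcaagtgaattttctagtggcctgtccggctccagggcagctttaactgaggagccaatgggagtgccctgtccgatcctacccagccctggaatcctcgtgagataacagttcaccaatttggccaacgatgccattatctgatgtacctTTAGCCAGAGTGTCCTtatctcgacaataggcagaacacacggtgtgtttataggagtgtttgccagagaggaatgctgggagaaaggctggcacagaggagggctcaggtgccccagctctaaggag
In the Abca1 window the run lies 67 to 52 bases before the start, reads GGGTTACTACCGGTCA on the opposite strand and differs from the repeat at 3 of the 12 fixed letters. A run with at most 3 mismatches is held by 21.9% of all 32851 windows. The run shared by Abcg5 and Abcg8 and the closest runs of Nr1h3, Apoe and Lpcat3 had 4 mismatches, which 76.9% of windows match as closely. The closest run of Mylip had 5, matched by 99.8%. Such a match is a description of letters and shows no binding.

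None of the 9 genes passed the test between the diets. With limma on all 8 arrays 0 of 9 passed as higher and 0 of 9 as lower, against 4.76% and 3.91% of all genes (8.68% in either direction). In none of the 9 did the values of the 2 diets separate, against 5.2% of all genes, 2.93% with HFHCD above and 2.27% with HFHCD below. A count of 0 among 9 is close to that background and does not set these genes apart from others. Differences ran from -0.15 to 0.34 on the log2 scale, with a median of -0.04, against 0.00 over all genes. All 9 of the 95% confidence intervals lay within 1 log2 unit of 0, as did 96.0% of intervals over all genes, and 6 of 9 within 0.5 (68.2% of all genes). No gene of the 24675 reached an adjusted p under 0.05 with limma (smallest 0.320).

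**Figure D1:**
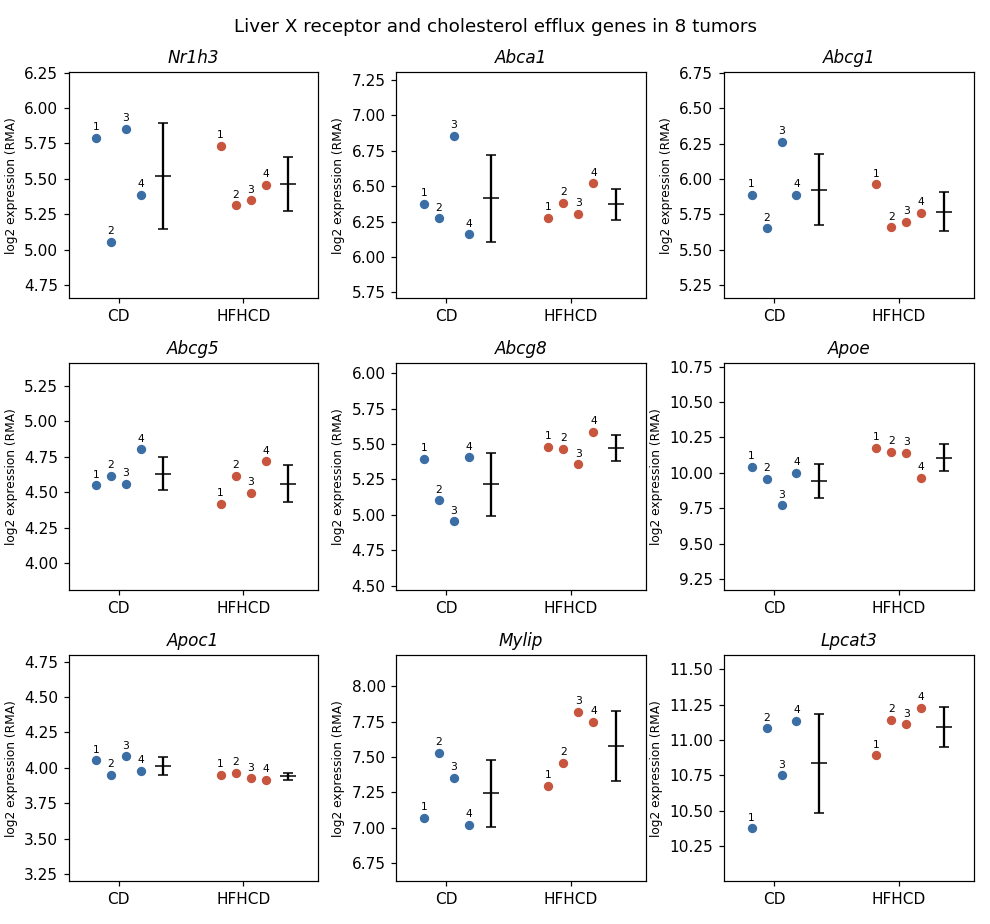
Log2 expression (RMA) of the 9 genes in each of the 8 tumors, with the diet on the horizontal axis, the tumor number above each point, and the group mean ± SD (n = 4) as a black bar. All panels span the same number of log2 units, and in each of them the points of the 2 diets overlap.

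Nr1h3 encodes LXRα, the receptor that is abundant in macrophages, liver and fat. Its log2 expression was 5.79, 5.06, 5.86 and 5.39 in CD 1 to CD 4 and 5.73, 5.31, 5.35 and 5.46 in HFHCD 1 to HFHCD 4. The HFHCD values all fell inside the CD range. Means were 5.52 ± 0.37 (SD, n = 4) on CD and 5.46 ± 0.19 (SD, n = 4) on HFHCD, a difference of -0.06 (95% confidence interval -0.47 to 0.35). In limma the unadjusted p was 0.753 and the adjusted p 0.968, and the exact permutation test gave p = 0.743. The highest values were those of CD 3 and CD 1, which had the most macrophage marker signal. HFHCD 1 came next, although its macrophage mean of 6.13 was close to those of CD 2 and CD 4. Without CD 1 and CD 3 the difference was 0.24 (limma, unadjusted p = 0.144), opposite in sign. That setting, also used for other genes below, removes tumors from CD only, because they stood apart in these same data. It leaves only CD 2 and CD 4 against 4 HFHCD tumors. The part of macrophage content in the Nr1h3 values was not tested.

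Abca1 encodes the transporter that loads cholesterol and phospholipid onto lipid-poor apolipoprotein, the first step of HDL formation. It measured 6.37, 6.27, 6.86 and 6.16 in the CD tumors and 6.28, 6.38, 6.31 and 6.52 in the HFHCD tumors. CD 3 was the highest of the 8 and CD 4 the lowest, so that the CD tumors enclosed those on HFHCD. The difference was -0.04 (95% confidence interval -0.38 to 0.29; limma, unadjusted p = 0.777), so that the interval ran from 0.770 to 1.22 times the CD level. The exact permutation p was 0.914. Without CD 3 the difference was 0.10 (limma, unadjusted p = 0.338), and without CD 1 and CD 3 it was 0.16 (limma, unadjusted p = 0.176).

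Abcg1 passes cholesterol to HDL particles that already carry lipid. Its values were 5.89, 5.65, 6.26 and 5.89 on CD and 5.96, 5.66, 5.70 and 5.76 on HFHCD. CD 3 was again the highest. The difference was -0.15 (95% confidence interval -0.46 to 0.15; limma, unadjusted p = 0.284), and without CD 1 and CD 3 it was -0.0014 (limma, unadjusted p = 0.991). Abca1 and Abcg1 were also set against each other inside each tumor. Abca1 minus Abcg1 was 0.49 ± 0.16 (SD, n = 4) on CD and 0.60 ± 0.20 (SD, n = 4) on HFHCD, a change of 0.11 that was within the spread (exact permutation test, two-sided, p = 0.457). This was 1 of 2 such differences planned, the other was not computed, and the p is unadjusted.

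Abcg5 and Abcg8 encode the paired subunits of a sterol transporter, which in liver and intestine sends cholesterol and plant sterols into bile and gut. Abcg5 measured 4.55, 4.62, 4.56 and 4.80 on CD and 4.42, 4.61, 4.50 and 4.72 on HFHCD, close to the dim level in every tumor. The difference was -0.07 (95% confidence interval -0.30 to 0.16; limma, unadjusted p = 0.50). Abcg8 measured 5.40, 5.10, 4.95 and 5.41 on CD and 5.48, 5.46, 5.36 and 5.59 on HFHCD. HFHCD 1, 2 and 4 lay above every CD tumor, whereas HFHCD 3 lay below CD 1 and CD 4. The difference was 0.26 (95% confidence interval -0.02 to 0.53; limma, unadjusted p = 0.0614, adjusted p = 0.601; exact permutation p = 0.0857). Abcg8 passed limma's threshold without CD 1 (0.32, unadjusted p = 0.0272) and without CD 4 (0.32, unadjusted p = 0.0325). It also passed with array weights (0.27, unadjusted p = 0.0293) and with the replicate number as a block (0.26, unadjusted p = 0.0431). It did not pass under the other 14 of 18 alternatives, and was lowest without CD 3 (0.17, unadjusted p = 0.163). Of 7 hepatocyte markers, 5 were dim in these tumors, whereas Ttr and Ahsg lay above the dim level on all 8 arrays. In that list 1 was higher, the dim Tat (0.21, limma, unadjusted p = 0.0459), and 0 were lower.

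Apoe and Apoc1 lie in 1 cluster on chromosome 7 and encode apolipoproteins E and C-I, which ride on lipoproteins. Apolipoprotein E also accepts cholesterol outside macrophages and directs particles to lipoprotein receptors. Apoe measured 10.04, 9.96, 9.77 and 10.00 on CD and 10.17, 10.15, 10.14 and 9.97 on HFHCD. HFHCD 1 to 3 lay above all CD tumors, and HFHCD 4 lay among them. Means were 9.94 ± 0.12 (SD, n = 4) and 10.11 ± 0.10 (SD, n = 4). The difference was 0.17 (95% confidence interval -0.05 to 0.38; limma, unadjusted p = 0.112, adjusted p = 0.683; exact permutation p = 0.0857). CD 3, with the highest macrophage mean, had the lowest Apoe, whereas CD 1, with the next highest, had the highest Apoe on CD. Apoc1 was dim on all 8 arrays, at 3.95 to 4.08 on CD and 3.91 to 3.96 on HFHCD, so its difference of -0.08 (95% confidence interval -0.25 to 0.10; limma, unadjusted p = 0.348) says little of its RNA.

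Mylip encodes IDOL, a ubiquitin ligase that marks lipoprotein receptors for breakdown when sterol is high, so that less cholesterol is taken up. Among the 9 genes its difference was the largest. It measured 7.07, 7.53, 7.35 and 7.02 on CD and 7.29, 7.46, 7.82 and 7.75 on HFHCD. HFHCD 3 and HFHCD 4 were the highest of the 8, but HFHCD 1 and HFHCD 2 lay below CD 2. The means were 7.24 ± 0.24 (SD, n = 4) and 7.58 ± 0.25 (SD, n = 4), a difference of 0.34, or 1.26-fold (95% confidence interval of the log2 difference -0.01 to 0.69; limma, unadjusted p = 0.0569, adjusted p = 0.592; exact permutation p = 0.143). It passed limma's threshold without CD 2 (0.43, unadjusted p = 0.0224), without HFHCD 1 (0.43, unadjusted p = 0.0234) and after quantile normalization (0.33, unadjusted p = 0.0471). It did not pass under the other 15 of 18 alternatives, and was lowest without HFHCD 3 (0.26, unadjusted p = 0.153).

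Lpcat3 encodes an enzyme of membranes that puts polyunsaturated fatty acids into phospholipids, an arm of the receptor response that alters membrane fluidity. Its values were 10.38, 11.08, 10.75 and 11.13 on CD and 10.89, 11.14, 11.11 and 11.23 on HFHCD. The pair of CD tumors rich in macrophage and fibroblast markers had the lowest values, and CD 2 and CD 4 lay among the HFHCD tumors. The difference was 0.26 (95% confidence interval -0.12 to 0.63; limma, unadjusted p = 0.158; exact permutation p = 0.200). Without CD 1 and CD 3 it was -0.02 (limma, unadjusted p = 0.896).

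**Figure D2:**
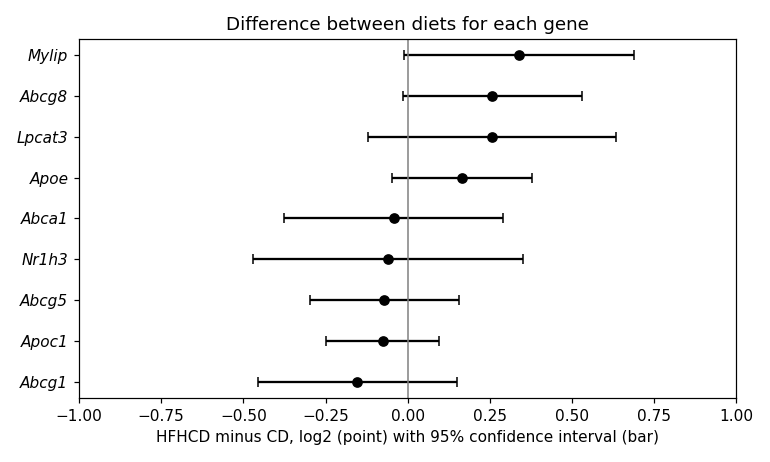
Difference between diets for each of the 9 genes, HFHCD minus CD in log2 units on the horizontal axis, with limma's 95% confidence interval as a bar. All intervals include 0, and the highest upper bound is that of Mylip, at 0.69.

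Nr1h3, Abca1, Abcg1 and Apoc1 were highest in CD 3, whereas Apoe and Abcg8 were lowest there. CD 3 was the highest or lowest of the 8 tumors for 6 of 9 genes, against 33.1% of all genes, and CD 1 for 1 of 9, against 42.9%. The spread was larger on CD than on HFHCD for 7 of 9 genes (69.9% of all genes), the exceptions being Abcg5 and Mylip.

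**Figure D3:**
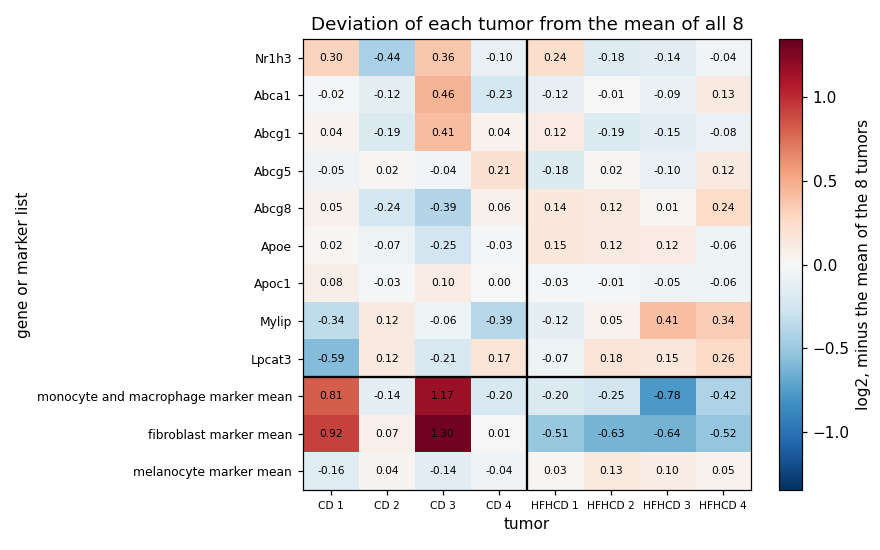
Deviation of each tumor from the mean of all 8, in log2 units, for the 9 genes (upper rows) and the mean of 3 marker lists (lower rows), with tumors as columns. In CD 3 the macrophage list stands 1.17 above its mean, Abca1 0.46 above and Apoe 0.25 below (-0.25).

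Genes around the pathway were read from 8 lists of 105 measured genes, of which 5 were higher, 6 lower and 94 did not pass. Of the 105, 22 were dim (above that level in fewer than 4 arrays), and their failure to pass says little of their RNA. Over all genes 4.76% were higher and 3.91% lower, and the median was 0.00 both over the lists and over all genes. Of 12 RXR partners and coregulators, 1 was higher and 0 lower. Gps2, a subunit of the corepressor complex that holds nuclear receptor targets silent, rose by 0.31 (limma, unadjusted p = 0.0205, adjusted p = 0.498), from 7.42 to 7.84 on CD to 7.85 to 8.02 on HFHCD, without overlap. It did not pass without CD 3, HFHCD 1 or HFHCD 3 (0.27 to 0.29), and was 0.15 without CD 1 and CD 3 (limma, unadjusted p = 0.165). The receptor partners themselves had differences of -0.09 for Rxra, 0.03 for Rxrb and -0.06 for Rxrg, which was dim. Of 10 enzymes that make or break down sterol ligands, 0 passed in either direction, and 4 were dim. Ch25h, which makes an oxysterol by hydroxylating the side chain, had a difference of -0.32 (limma, unadjusted p = 0.0605).

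Of 19 other genes that the receptors induce, 2 were higher, 2 lower and 15 did not pass (median -0.08). Of those that did not pass, 5 were dim. Scd2, a stearoyl-CoA desaturase, rose by 0.36 (limma, unadjusted p = 0.0440) and Fads2, the delta-6 desaturase of polyunsaturated fatty acids, by 0.42 (limma, unadjusted p = 0.0493). Scd2 ran from 12.21 to 12.89 on CD and from 12.94 to 13.23 on HFHCD, so the diets did not overlap. Without CD 1 and CD 3 the values were 0.14 for Scd2 and 0.09 for Fads2, and neither passed. Scd2 also failed without either of these alone or any 1 HFHCD tumor (0.21 to 0.39), and Fads2 without CD 1, CD 3 or HFHCD 2, 3 or 4 (0.30 to 0.43). Srebf1, the lipogenic regulator upstream of these enzymes, had a value of 0.21 (limma, unadjusted p = 0.238), and Scd1, which the receptors also induce, of 0.39 (limma, unadjusted p = 0.0926). Fads1, the delta-5 desaturase, had a value of 0.20 (limma, unadjusted p = 0.253). The remaining lipogenic genes of the list differed in sign and did not pass, at -0.26 for Fasn, -0.10 for Mlxipl and 0.10 for Elovl5. Elovl6, at 0.47 (limma, unadjusted p = 0.0620), had the largest positive difference of the list. Of the 19 genes 10 had a negative difference, among them Pltp at -0.54, which did not pass (limma, unadjusted p = 0.170). Lpl, the gene of lipoprotein lipase, fell by 0.95 (limma, unadjusted p = 0.00825, adjusted p = 0.462). It measured 7.32, 7.20, 8.12 and 6.54 on CD and 6.37, 6.55, 6.01 and 6.44 on HFHCD, with CD 4 the only CD tumor in the HFHCD range, and passed with any 1 tumor left out (-1.21 to -0.68). Without CD 1 and CD 3 the difference was -0.53 (limma, unadjusted p = 0.0328). The exact permutation test on all tumors gave p = 0.0571 for Lpl. Lipoprotein lipase is also made by fat, muscle and macrophages, and of the markers of these 2 of 9, 9 of 12 and 13 of 20 were lower on HFHCD. Their part in the result was not tested. Tgm2, a transglutaminase of macrophages and other cells, fell by 0.57 (limma, unadjusted p = 0.0476). Its difference was -0.13 without CD 1 and CD 3, and it did not pass without CD 1, CD 3 or any 1 HFHCD tumor (-0.60 to -0.31).

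**Figure D4:**
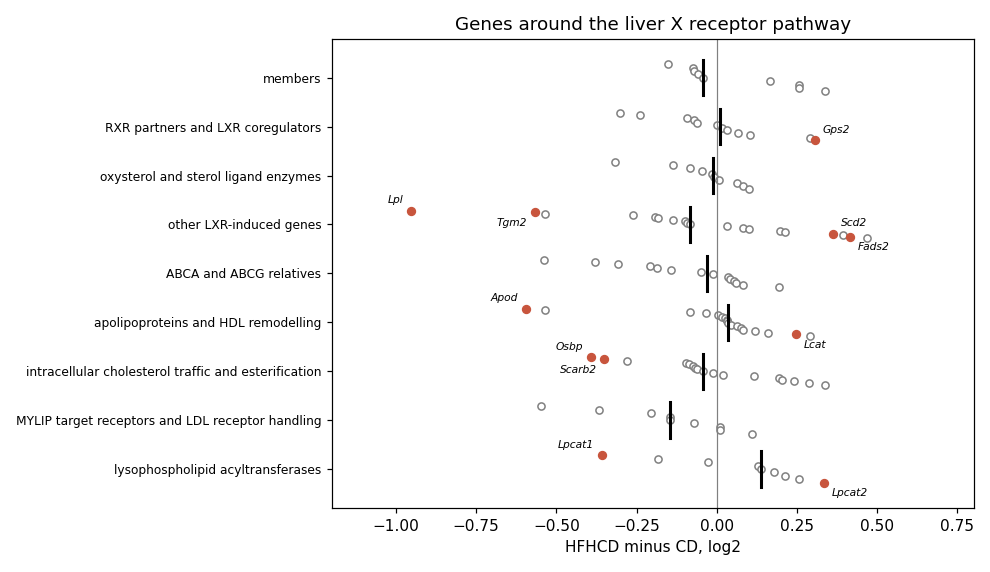
HFHCD minus CD in log2 units for each measured gene of 8 lists around the receptors and for the 9 members, with red points past limma's threshold, open points not, and a black line at the list median. The 11 named genes lie between -0.95 (Lpl) and 0.42 (Fads2), and no member is red.

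Among 14 relatives of the transporters in the ABCA and ABCG families, 0 passed the test in either direction, and 4 were dim. Of 18 apolipoproteins and genes of HDL remodelling, 1 was higher and 1 lower, and 9 were dim. Lcat, the plasma enzyme that esterifies cholesterol on HDL, rose by 0.25 (limma, unadjusted p = 0.0362), and Apod, an apolipoprotein of connective tissue and nerve, fell by 0.59 (limma, unadjusted p = 0.0281). Apod was highest in CD 3 and CD 1, at 5.76 and 5.46, where fibroblast markers were also highest, whose part in it was not tested. The Apod difference was -0.18 without CD 1 and CD 3 (limma, unadjusted p = 0.250). It did not pass without CD 1, CD 3, HFHCD 3 or HFHCD 4 (-0.54 to -0.41), nor did Lcat without CD 2, CD 4 or HFHCD 1, 2 or 3 (0.20 to 0.26). Scarb1, the HDL receptor SR-BI, had a value of 0.29 (limma, unadjusted p = 0.101). Of 17 genes of cholesterol traffic and esterification inside the cell, 0 were higher and 2 lower, Osbp, an oxysterol-binding lipid exchanger, by a log2 fold change of -0.39 (limma, unadjusted p = 0.0489), and Scarb2, a lysosomal membrane protein gene, by -0.35 (limma, unadjusted p = 0.0329). Osbp did not pass without CD 2, 3 or 4 or HFHCD 1 or 2 (-0.41 to -0.28), nor Scarb2 without CD 3, CD 4, HFHCD 1 or HFHCD 4 (-0.36 to -0.25). The lysosomal cholesterol exporters Npc1 and Npc2 had values of -0.07 and -0.06. Of 9 genes of the receptors that IDOL targets and their handling, 0 passed. Vldlr and Lrp8, receptors marked by IDOL, had values of -0.15 and 0.11. Sorl1, a dim relative of the LDL receptor, was lower in every HFHCD tumor than in any on CD, with a difference of -0.37 that did not pass (limma, unadjusted p = 0.0595).

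Lpcat3 has relatives that also reload lysophospholipids. Of 9 lysophospholipid acyltransferases, 1 was higher, 1 lower and 7 did not pass. Lpcat2, which also makes platelet-activating factor in inflammatory cells, rose by 0.33 (limma, unadjusted p = 0.0139, adjusted p = 0.471), from 9.24 to 9.59 on CD to 9.63 to 9.83 on HFHCD, without overlap. Lpcat1, which favours saturated fatty acids, fell by 0.36 (limma, unadjusted p = 0.0130, adjusted p = 0.470). Both passed under each of 18 alternative settings, while the exact permutation test gave p = 0.0286 for Lpcat2 and 0.0571 for Lpcat1.

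The genes whose values over the 8 tumors were most like those of Abca1, among 12954 genes above the dim level in at least 4 arrays, predicted genes, unnamed transcripts, small RNAs and olfactory and vomeronasal receptors being left out, were Tnfrsf11b (Pearson r = 0.98), Sh3bp2 (0.97), Ikzf2 (0.96) and Slc6a3 (0.93). For Apoe they were Fam71f1 (0.96), Sars (0.96), Vezt (0.96) and Gmeb2 (0.95), and for Nr1h3 Fbln7 (0.97), Klk4 (0.96), Ighj3 (0.96) and Ocstamp (0.95). These are the highest of many r values over 8 points and are given as a description, since the tumors share the 2 that stand apart. Without CD 1 and CD 3 the r values of these pairs ran from 0.84 to 0.96. The pairs were picked on all 8 tumors, including the 6 used here, so this is no separate check. No member was among the 4 nearest genes kept for Abca1, Apoe or Nr1h3. So short a list cannot show whether the members vary together.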

How the data were processed

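The deposited values are log2 expression per probe set. RMA and Affymetrix Expression Console are named, without versions, in the notes the submitters gave on processing, and the probe set definition was not found in the sources used here. RMA subtracts background and equalises arrays, which narrows differences between arrays as a whole. Of 25429 probe sets, 24675 had 1 symbol in the platform annotation, 0 had several and 754 were not named and entered only the alternative with all probe sets. Groups and numbers came from the sample titles. HFHCD was compared with CD in limma 3.58.1 (R 4.3.3, lmFit, eBayes) with no covariate, and p-values were adjusted over all named genes by the Benjamini-Hochberg method. Single genes were also compared by exact two-sided permutation (70 assignments, smallest possible p 0.0286). The methods' t-test, an ordinary two-sided test with equal variance, was an alternative, beside the settings named in the closing section. Members and lists were chosen with earlier results of these data known. Named genes are the 9 members, called genes of each list (at most 4 by p) and the 4 most alike genes of Abca1, Apoe and Nr1h3. Other genes were named after their values were seen. The planned difference between the 2 receptor genes was not computed, 1 of them being not analysed here. The fit was tested on simulated data. Nothing says that each tumor came from its own mouse, so a p-value covers only the spread among the 8 arrays, whose number limits the precision. Python 3.11.15 searched promoters and drew plots.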

Additional observations from a re-analysis of the deposited data

Results flagged for a closer look

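In 62 sets of 4 values (9 members, 11 list genes, 10 marker means and the Abca1 to Abcg1 difference, on each diet), 2 held a tumor far from the other 3, and chance flags about 1 in 20. Apoe in HFHCD 4 was 9.97, against 10.14 to 10.17 in the other HFHCD tumors. Scd2 in HFHCD 4 was 13.23, against 12.94 to 12.95 in the others.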

How the results depend on the processing

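No member reached an adjusted p under 0.05 under any of the 18 alternatives (smallest 0.268 with limma). Members called higher were 0, and 1 with the replicate block (Abcg8), array weights (Abcg8) or quantile normalization (Mylip), and 0 to 1 when 1 tumor was left out. No member was called lower under any alternative. All genes called were 1810 higher and 1776 lower without CD 1 and CD 3, and 1928 and 1582 with array weights. With the dim filter 632 were lower, out of the 14825 genes that it kept. Leaving out 1 tumor gave 839 (without HFHCD 2) to 1942 (without CD 1) higher and 632 (without HFHCD 1) to 1767 (without CD 1) lower. Pathway genes called higher were 3 with the methods' t-test, array weights, median centring or the dim filter, and 2 to 9 with 1 tumor left out. The dim filter also took the dim genes out of the lists. Pathway genes called lower were 10 with the replicate block, 12 without CD 1 and CD 3, 2 with the methods' t-test, and 2 to 11 with 1 tumor left out. The sign turned for Nr1h3 with array weights (0.091) and without CD 1 and CD 3 (0.24), and its range with 1 tumor left out was -0.21 to 0.05 (0.03 without CD 1 and 0.052 without CD 3). It turned for Abca1 with array weights (0.043) and without CD 1 and CD 3 (0.16), with a range of -0.13 to 0.10, and for Lpcat3 without CD 1 and CD 3 (-0.015). Abca1 minus Abcg1 ran from 0.036 to 0.21. The cause of these changes was not tested. The titles number the tumors but state no pairing, so the replicate block is only an alternative setting. Deviations of same-numbered tumors from their group means correlated at 0.27, -0.03, -0.26 and 0.05. With no reference to set them against, these values cannot decide whether the tumors were paired. Of the 11 list genes, Lpl, Lpcat1 and Lpcat2 passed under all 18 settings, and the other 8 each failed under 5 to 12 of them. The exact permutation test, not among these settings, gave p = 0.0286 for Gps2, Scd2 and Lpcat2 and 0.0571 for Lpl, Lpcat1 and Lcat. It gave 0.0857 for Tgm2 and Scarb2, 0.114 for Apod and Osbp, and 0.143 for Fads2. Signal near the dim level limits Abcg5 and Apoc1.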
